A study of Capsella grandiflora and Capsella rubella with 18 samples.

Results

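The genes described here lie in the gene-poor parts of the 8 main scaffolds of the Capsella rubella genome. Rows of the deposited expression table, each a gene ID with a place on the CR v1 JGI build, were counted by start coordinate in fixed windows of 1 Mb, and the last, partial window of each scaffold was left out. A window with fewer than 75 rows was called gene-poor, and 16 of the 122 full windows met this rule. They hold 549 of the 19350 rows (2.84%), beside 14656 rows in the 77 gene-rich windows of 150 or more. The 29 windows in between hold 3388 rows. The rule used position alone and no expression value.

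Expression was measured by paired-end sequencing of polyadenylated RNA from plants raised in a greenhouse under standard conditions. Flower buds of mixed stages came from 4 plants of the outcrossing C. grandiflora and 4 of the self-compatible C. rubella, and maturing leaves came from 10 further C. grandiflora plants. Among the C. grandiflora bud plants 3 grew from wild-collected seed and 1 was an F1 of a cross, and among the leaf plants the numbers were 9 and 1. Of the C. rubella plants 1 had been inbred in the greenhouse, and 3 of the leaf plants came from the same site. No treatment was given, and no label names a genotype beyond the plant. Each library is taken to be a separate plant from its title, so p-values set a group difference against the spread between these libraries. Values are FPKM, fragments scaled to transcript length and to library size, which allows levels of different genes to be compared. The table does not pair its IDs with names or functions. Roles of the genes are therefore not given, and the tissue labels could not be checked against marker genes.

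In many flowering plants, genes are unevenly spread along a chromosome. The stretches around the centromere tend to hold few genes among much repetitive DNA, which is often packed as heterochromatin, while the arms are denser. Genes do reside in such stretches and can be active there. The table does not mark centromeres, so whether the windows described here surround them was not tested. Density is that of rows in the table and not of all annotated genes, since how the authors chose rows is not given in the sources used here.

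The gene-poor windows formed a single unbroken stretch on each of the 8 scaffolds. They spanned 13 to 15 Mb on scaffold 1 (63 rows), 4 to 7 Mb on scaffold 2 (122 rows), 10 to 12 Mb on scaffold 3 (110 rows) and 3 to 5 Mb on scaffold 4 (60 rows). The others were 4 to 5 Mb on scaffold 5 (13 rows), 10 to 12 Mb on scaffold 6 (56 rows), 12 to 14 Mb on scaffold 7 (66 rows) and 3 to 5 Mb on scaffold 8 (59 rows). The window with the fewest rows (13) was that of scaffold 5, and the fullest gene-poor window held 62 rows (scaffold 3). Just outside the limit stood windows of 75 rows on scaffold 4 and 78 rows on scaffold 1, both next to a gene-poor stretch. The median over all full windows was 171 rows and the highest count 231.

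**Figure D1:**
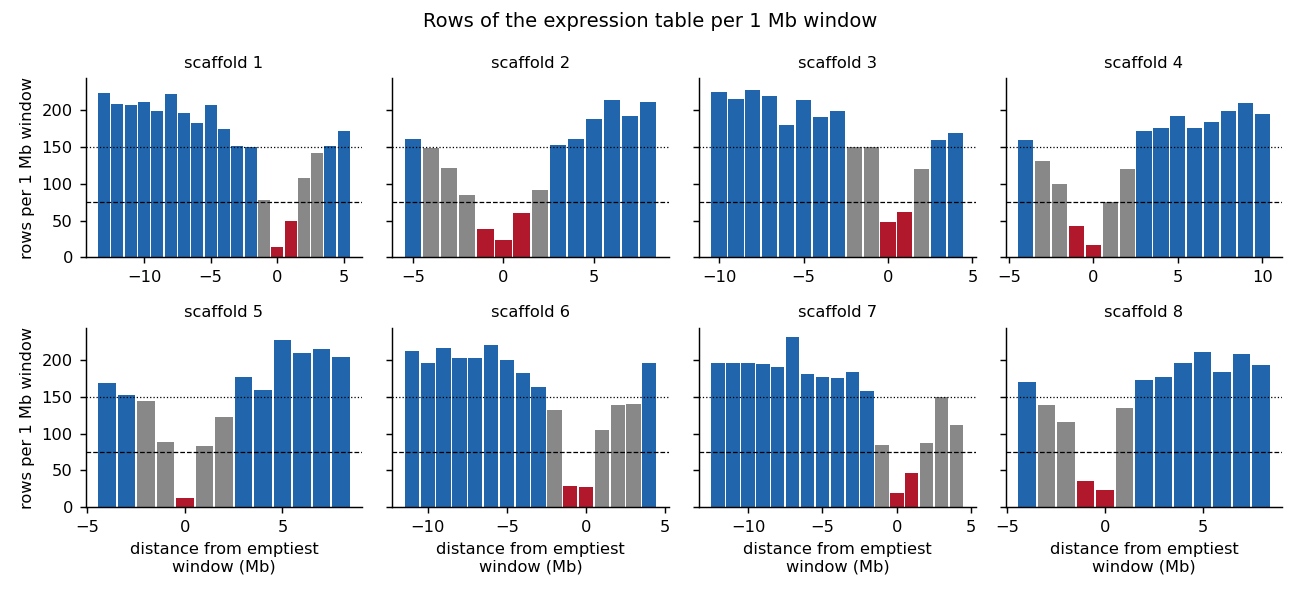
Rows of the table per full 1 Mb window (y axis) against the distance in Mb from the window with the fewest rows on each of the 8 main scaffolds (x axis). Red bars are gene-poor windows, blue bars hold 150 rows or more and grey bars are in between; the dashed and dotted lines mark 75 and 150 rows. Each scaffold has a single run of 1 to 3 red bars.

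The genes in these stretches had about the same median length as those of gene-rich windows but stood farther apart. Their 526 distinct loci had a median span of 2430 bp from start to end, beside 2426 bp for the 13609 loci of gene-rich windows. The median distance to the nearest other locus was 3538 bp in gene-poor and 611 bp in gene-rich windows, a spacing that follows from the rule. The most isolated member was Carubv10018968m on scaffold 5 (4700662 to 4701732), with 134054 bp to its nearest neighbour. Rows that share their coordinates with another row, between which the reads of a locus may be divided, made up 8.38% of members (46 rows) and 14% of gene-rich rows.

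Before the levels, some features of the libraries bear on what follows. The columns of C. grandiflora bud 1 and C. rubella bud 1 hold exactly 0.5 in many rows where the other bud columns hold 0: among members 83 and 66 rows stood at 0.5 and none at 0. The other 6 bud libraries listed 65 to 97 members at 0. Levels near 0 were therefore counted as below 1 FPKM, which treats both values alike. Leaf columns carry more digits and larger sums than bud columns (1307609 to 1858148 FPKM in leaf, 576725 to 657140 in bud), so tissue and the authors' processing cannot be told apart in any comparison of bud with leaf. The read depth behind the values is unknown. In such bulk tissue, fewer cells of a type and less RNA per cell cannot be told apart.

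A larger share of genes was scarcely expressed in the gene-poor stretches than in gene-rich windows, in every library. In C. grandiflora buds 22.4%, 24%, 26.2% and 20.6% of members stood below 1 FPKM (23.3% ± 2.4, SD, n = 4). In C. rubella buds the shares were 24.6%, 24.8%, 23.9% and 25.5% (24.7% ± 0.673, SD, n = 4). Over the 10 leaf libraries they ran from 32.1% through a median of 34.6% to 37.3%. The lowest bud share of gene-poor windows (20.6%) lay above the highest of gene-rich windows (11.8%), and in leaf the lowest gene-poor share exceeded the highest gene-rich one (26%). The 29 windows of intermediate density lay close to the gene-poor ones, at 19.8% ± 0.933 for C. grandiflora buds, 22.2% ± 0.51 for those of C. rubella (SD, n = 4 each) and 33.1% ± 1.89 in leaf (SD, n = 10). The share was higher in gene-poor than in intermediate windows in all 8 bud libraries and in 9 of 10 leaf libraries.

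Among the genes that were expressed, gene-poor and gene-rich windows had similar medians. The median level of members at 1 FPKM or above was 13.6 ± 0.443 FPKM for C. grandiflora buds and 14.1 ± 0.634 for those of C. rubella (SD, n = 4 each), and it was 18.9 ± 1.98 for leaf (SD, n = 10). For gene-rich windows the same medians were 13.6 ± 0.254, 14.1 ± 0.338 and 17.8 ± 1.75 FPKM. The gene-poor median was below the gene-rich one in 4 of 8 bud libraries and in none of 10 leaf libraries. Over all members, expressed or not, the median was 8.61 ± 0.424 FPKM for C. grandiflora buds, 8.17 ± 0.247 for those of C. rubella (SD, n = 4 each) and 7.08 ± 1.23 in leaf (SD, n = 10). That of gene-rich rows was 11.3 ± 0.366, 11.6 ± 0.32 and 10.5 ± 1.34 FPKM, higher in 18 of 18 libraries. Intermediate windows had lower medians than gene-poor ones in all 18, at 8.06 ± 0.121, 7.98 ± 0.238 and 5.63 ± 0.998 FPKM, so the median did not fall steadily with density.

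**Figure D2:**
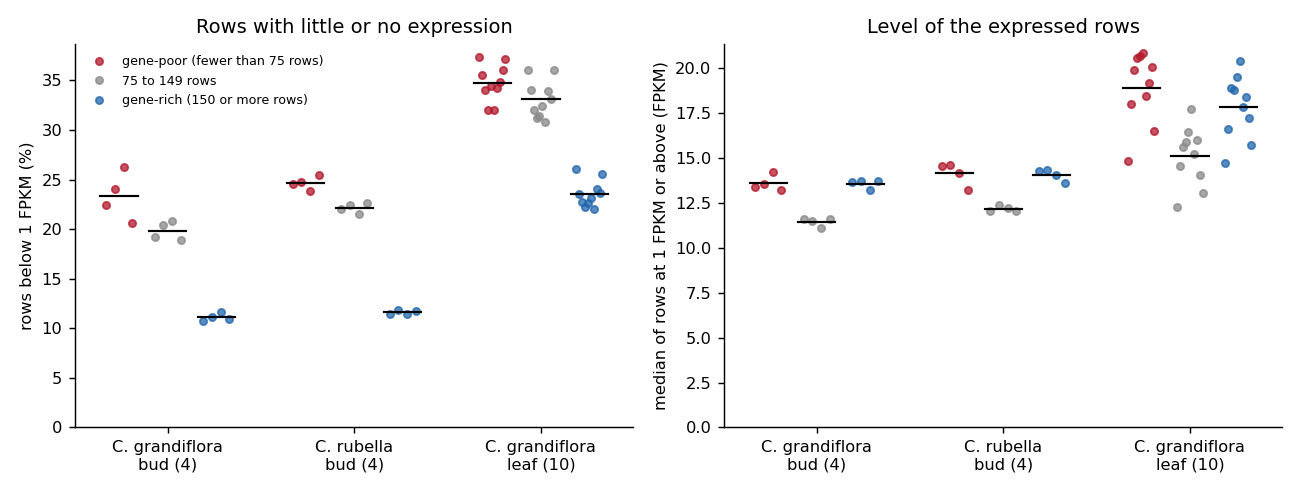
Left, the percentage of rows below 1 FPKM in each library; right, the median FPKM of rows at 1 FPKM or above. Points are libraries of the 3 groups on the x axis, coloured by the density of the window, and black lines are means. Gene-poor windows (red) have 20.6% to 26.2% of rows below 1 FPKM in buds where gene-rich windows (blue) have 10.7% to 11.8%, while the medians of expressed rows overlap.

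Short members were scarcely expressed more often than long ones. Of the 120 members spanning less than 1500 bp, 49.4% stood below 1 FPKM in the mean bud library and 67.9% in the mean leaf library, where the 2507 gene-rich rows of that span had 22.5% and 46.3%. Of the 200 members spanning 3000 bp or more, 10.6% were below 1 FPKM in bud and 17.7% in leaf, beside 6.5% and 13.5% of gene-rich rows. Intermediate rows gave 35.7% and 59.5% under 1500 bp, and 13.2% and 19.9% at 3000 bp or more. The median bud level of the long members was 11.5 FPKM, close to the 12.3 of long gene-rich rows, whereas short members had a median of 1.12 and short gene-rich rows 6.49. Distance to the next gene went the same way. Of 162 members at least 10000 bp from any other locus, 34.3% were below 1 FPKM in bud, and of 134 members within 1000 bp of one, 18.2% were. Intermediate rows at these distances gave 33.4% and 16.1%, and gene-rich rows 19.9% and 9.54%, so the trend was not particular to gene-poor windows. The members' median bud levels at these distances were 5.09 and 11.7 FPKM.

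Expression reached all libraries for about as many members as in intermediate windows and for fewer than in gene-rich windows. Of the 549 members, 284 (51.7%) were at 1 FPKM or above in all 18 libraries, beside 52.7% of intermediate and 64.8% of gene-rich rows. A further 40 members (7.29%) stayed below 1 FPKM in all 18, beside 6.43% and 3.13%. Tissue restriction was uncommon: 27 members (4.92%) reached 1 FPKM in all 8 bud libraries and in no leaf library, where gene-rich rows gave 6.24%, and 6 members (1.09%) did the opposite, where gene-rich rows gave 0.703%.

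The 8 stretches were not alike. The stretch of scaffold 7 had the highest medians, 11.6 ± 0.648 FPKM in C. grandiflora buds, 12.6 ± 0.664 in those of C. rubella (SD, n = 4 each) and 16.6 ± 2.35 in leaf (SD, n = 10). Within it the window from 13 to 14 Mb held 46 rows with medians of 15.3, 15.9 and 21.2 FPKM, above the gene-rich medians. The single window of scaffold 5 was lowest, at 0.79 ± 0.36, 1.04 ± 0.127 and 0.17 ± 0.211 FPKM in the same order, and 51.9% of its 13 rows were below 1 FPKM in the mean C. grandiflora bud library. On scaffold 8 the window from 4 to 5 Mb differed between species in its median, at 1.4 FPKM in C. grandiflora and 5.24 in C. rubella buds. Its 23 rows make 19 distinct loci. Of its 16 genes tested between species 18.8% were called, beside 23.9% of all tested genes. Across all 122 windows the number of rows and the share below 1 FPKM in C. grandiflora buds had a Spearman's rho of -0.75. Over the 16 gene-poor windows alone it was -0.83 in C. grandiflora buds, -0.50 in C. rubella buds and -0.34 in leaf. Over the 29 intermediate windows it was -0.13, -0.18 and -0.15, and over the 77 gene-rich windows -0.38, -0.47 and -0.31. These are descriptions without a test, since the windows share libraries and neighbours.

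The main comparison of the study sets buds of the selfing C. rubella beside those of the outcrossing C. grandiflora. Values of both species refer to the C. rubella build. Lower expression in C. grandiflora and poorer placement of its reads on that build therefore cannot be told apart. Gene-poor genes differed between the species about as often as other genes. Of the 549 members, 424 passed the filter (1 FPKM or above in at least 4 of the 8 libraries), and 94 of them (22.2%) had an adjusted p below 0.05 (limma, Benjamini-Hochberg over all 16923 genes tested), where 23.9% of all tested genes did. The members' share was 10% in 1 fit of all 18 libraries and 10.7% without the 2 bud libraries holding 0.5, where all tested genes gave 8.47% and 12.1%. In C. rubella 46 were higher and 48 lower, beside 11.9% and 12.0% of all tested genes. The median difference of the tested members was -0.01 on the log2(FPKM + 1) scale, beside 0.01 over all tested genes, and the median absolute difference was 0.25 in both. Non-overlapping libraries were found for 114 members (26.9%) and for 28.1% of all tested genes. Called differences of at least 2-fold were found for 37 members (8.73%), beside 6.55% of all tested genes. At least 4-fold differences were found for 12 members (2.83%), 7 higher and 5 lower in C. rubella, beside 1.03% of all tested genes. Of these 12, 5 stayed below 1 FPKM in every library of the other species. They were Carubv10021533m, Carubv10003549m, Carubv10019219m, Carubv10025184m and Carubv10016383m. They passed the filter only through the species where they are high and had to differ. Their p-values, given with each gene, are therefore no separate evidence. Among the rest of the 12, only Carubv10010061m and Carubv10018968m reached 1 FPKM in all bud libraries of both species. The others could not have passed without the species where they are high. The share is therefore a description and no test of it was made. With no filter, 12 of all 549 members (2.19%) and 0.91% of all rows met the same rule. The count was 2 (0.472%) with a pseudocount of 5 and 7 (1.75%) without the bud libraries holding 0.5. All tested genes gave 0.29% and 0.679%. It was 7 without C. rubella bud 1 or bud 3 when 4 libraries still had to reach 1 FPKM, and 11 in both cases when 3 had to.

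**Figure D3:**
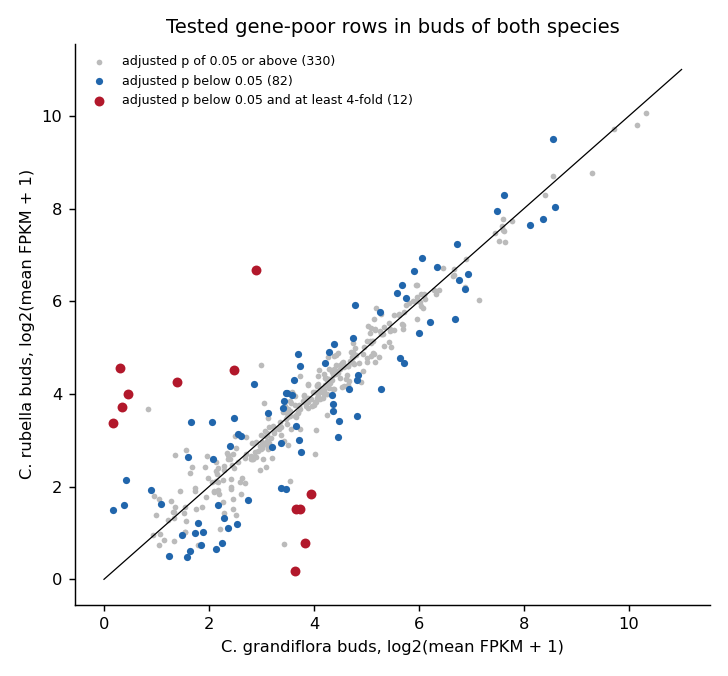
Mean levels of the 424 tested members in C. grandiflora buds (x axis) and C. rubella buds (y axis), each as log2(mean FPKM + 1), with the line of equal levels. Grey points are the 330 members at an adjusted p of 0.05 or above, blue points the 82 below it and red points the 12 that also differ at least 4-fold. Most members lie near the line, and every red point has a mean of 6.41 FPKM or less in the lower species.

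Those 12 genes lay on 7 of the 8 stretches, with 3 on scaffold 6, 2 each on scaffolds 2, 3 and 5 and 1 each on scaffolds 1, 4 and 7. In the species with the higher level their means ran from 9.32 to 102 FPKM. By mean level over the 8 bud libraries, 1.08% of tested members under 5 FPKM were called at 4-fold, 5.59% of those from 5 to 20 FPKM and 0.658% of those at 20 FPKM or above. Gene-rich genes of these levels gave 0.962%, 1.12% and 0.777%, the last above the members' share. The members' shares include the 5 genes that passed the filter only through the species where they are high. Carubv10025184m was the only call under 5 FPKM, and the others of these 5 lay from 5 to 20 FPKM. The shares by level are therefore descriptions.

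Among genes higher in C. rubella, Carubv10002575m (scaffold 6, 11415088 to 11415464) showed the largest difference. It measured 155, 95.5, 67.8 and 88.8 FPKM in the 4 C. rubella buds and 16.5, 0, 0 and 9.13 in the C. grandiflora buds. Every C. rubella library exceeded every C. grandiflora library, and the difference was 4.75 on the log2(FPKM + 1) scale (SE 0.943, limma adjusted p = 0.01). Its 10 leaf libraries had a median of 0.978 and a maximum of 65.7 FPKM, with 4 of them at 0. The leaf plants thus ranged from no listed expression to a level near the lowest C. rubella bud. This short gene lies 75333 bp from its nearest neighbour.

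Carubv10021533m (scaffold 2, 5259132 to 5265867) was even within each species. Its levels were 21.6, 22, 22.8 and 23.2 FPKM in buds of C. rubella and 0.16, 0.16, 0.13 and 0.46 in those of C. grandiflora. The groups were far apart, with a difference of 4.26 (SE 0.113, limma adjusted p = 5.55e-07). The gene passed the filter only through C. rubella and had to differ. Of the C. grandiflora leaf libraries, 4 were listed at 0 while leaf 2 stood at 20.8 and leaf 5 at 6.54 FPKM. The value of leaf 2 is close to that of the C. rubella buds.

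Carubv10003549m (scaffold 6, 10895812 to 10896964) measured 17.8, 17.2, 7.8 and 17.6 FPKM in buds of C. rubella and 0.5, 0, 0.66 and 0.3 in those of C. grandiflora (difference 3.52, SE 0.277, limma adjusted p = 0.000354). None of the 10 leaf libraries held a value above 0. Carubv10019219m (scaffold 5, 4956727 to 4959322) measured 15.7, 12.2, 9.49 and 11.2 FPKM in buds of C. rubella and 0.5, 0, 0 and 0.58 in those of C. grandiflora (difference 3.38, SE 0.214, limma adjusted p = 0.000116). Neither gene overlapped between the species, but both passed the filter only through C. rubella and had to differ. The latter was at 0 in 8 leaf libraries and at 5.7 FPKM in leaf 2, the same library that was highest for Carubv10021533m.

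Carubv10002371m (scaffold 6, 10645254 to 10647472) measured 24.8, 13.9, 14.8 and 18.7 FPKM in buds of C. rubella and 0.5, 0, 0 and 5.94 in those of C. grandiflora (difference 3.37, SE 0.585, limma adjusted p = 0.00636, and 0.145 in 1 fit of all 18 libraries). Its leaf levels ran from 0 through a median of 2.52 to 124 FPKM, and 4 leaf libraries stood at 16.4 FPKM or above, within or over the range of C. rubella. Carubv10025184m (scaffold 4, 4666577 to 4667299) measured 11.1, 9.83, 8.01 and 8.39 FPKM in buds of C. rubella and was listed at 0.5, 0, 0 and 0 in those of C. grandiflora (difference 3.21, SE 0.179, limma adjusted p = 6.31e-05). This gene too passed the filter only through C. rubella and had to differ. In leaf it reached 1.56 FPKM in leaf 5 and was at 0 in 8 libraries. The seventh gene above 4-fold, Carubv10010061m (scaffold 1, 14989320 to 14992346), was expressed in both species, at 22 FPKM in buds of C. rubella and 4.57 in those of C. grandiflora on average (difference 2.08, SE 0.166, limma adjusted p = 0.000376). It was chosen for its fold after values were seen.

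Among genes lower in C. rubella, a pair of genes from the fullest gene-poor window of scaffold 3 led. Carubv10016383m (11524136 to 11525594) measured 13.4, 10.9, 4.92 and 16.4 FPKM in C. grandiflora buds and was listed at 0.5, 0, 0 and 0 in C. rubella (difference -3.38, SE 0.327, limma adjusted p = 0.000908). Carubv10013581m (11476493 to 11478676) measured 16.6, 14.2, 6.96 and 15.1 FPKM in C. grandiflora and 0.33, 0.88, 1.19 and 0.45 in C. rubella buds (difference -3.02, SE 0.276, limma adjusted p = 0.000716). Carubv10016383m passed the filter only through C. grandiflora and had to differ. Carubv10013581m could not have passed without C. grandiflora either, since only its value of 1.19 in C. rubella reached 1 FPKM. Both genes were lowest in C. grandiflora bud 3 among that species' buds. In leaf both were scarce, with their highest values, 1.55 and 1.62 FPKM, in leaf 4.

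Carubv10018968m, the isolated gene of scaffold 5, measured 15.7, 13.5, 11.5 and 16.9 FPKM in C. grandiflora and 2.4, 2.14, 4.3 and 1.59 in C. rubella buds (difference -2.14, SE 0.221, limma adjusted p = 0.00115). In leaf it was listed at 0 in 9 libraries and at 0.0372 FPKM in the other. Carubv10006568m (scaffold 7, 13897715 to 13902055) measured 14.4, 9.66, 14.5 and 10.7 FPKM in C. grandiflora and 3.76, 0.17, 1.32 and 2.18 in C. rubella buds (difference -2.37, SE 0.387, limma adjusted p = 0.00521). It differed from the other genes of this group in its leaf level, 39.4 to 69.9 FPKM with a median of 47.8, and its row shares coordinates with another. Carubv10022479m (scaffold 2, 5750548 to 5752275) also passed 4-fold (difference -2.53, SE 0.73, limma adjusted p = 0.0376), but its libraries overlapped, with 3.65 to 22.5 FPKM in C. grandiflora and 0 to 6.96 in C. rubella buds. It was named for its fold after values were seen.

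Smaller decreases were those of Carubv10009530m and Carubv10015787m. Carubv10009530m (scaffold 1, 13406050 to 13407868) measured 11.8, 8.14, 9.96 and 10.5 FPKM in C. grandiflora and 2.12, 5.98, 1.68 and 1.55 in C. rubella buds (difference -1.66, SE 0.308, limma adjusted p = 0.00796, and 0.0559 without the bud libraries holding 0.5). Carubv10015787m (scaffold 3, 10134712 to 10135973) measured 10.2, 7.34, 11.5 and 8.55 FPKM in C. grandiflora and 2.48, 3.62, 3.81 and 1.75 in C. rubella buds (difference -1.43, SE 0.208, limma adjusted p = 0.00355). The latter was at 0 in all 10 leaf libraries, whereas the former was expressed in leaf at 1.18 to 10.1 FPKM.

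**Figure D4:**
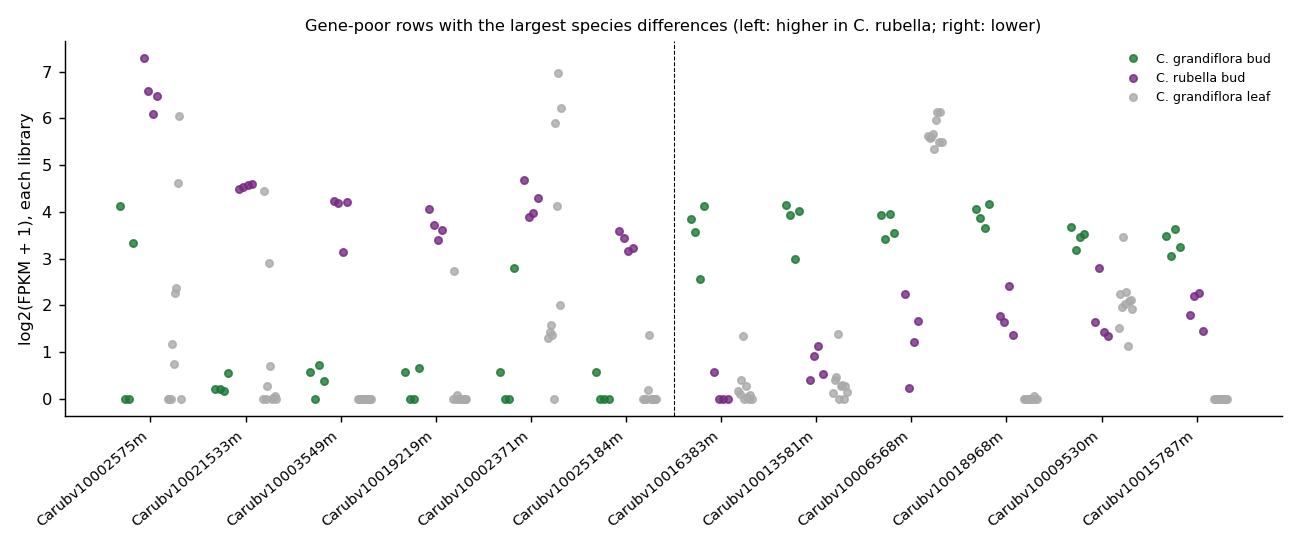
Level of 12 members in each library as log2(FPKM + 1), with 4 C. grandiflora bud (green), 4 C. rubella bud (purple) and 10 C. grandiflora leaf libraries (grey). The 6 genes left of the dashed line were higher in C. rubella buds and the 6 on the right lower. Bud libraries of the species do not overlap for any of the 12, while some leaf libraries of Carubv10021533m, Carubv10002575m and Carubv10002371m stand near or above the level of C. rubella buds.

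Near absence in all buds of 1 species beside expression in all buds of the other was found for 6 members. Near absence here means no value over 0.5 FPKM, and expression no value under 1 FPKM. By this measure 4 of 549 members (0.729%) were near absent in C. grandiflora alone, beside 29 of all 19350 rows (0.15%), and 2 members (0.364%) were near absent in C. rubella alone, beside 35 rows (0.181%). The 4 were Carubv10021533m, Carubv10025184m, Carubv10027286m and Carubv10026554m. The 2 were Carubv10016383m and Carubv10015840m. They are named because they are few, after their values were seen. Near absence in C. grandiflora cannot be told apart from poor placement of its reads on the C. rubella build. Carubv10026554m (1.51 to 3.09 FPKM in buds of C. rubella and 0.22 to 0.5 in those of C. grandiflora) lies on scaffold 8 (4487673 to 4491460) and shares its coordinates with Carubv10028057m, whose mean was 14.9 FPKM in buds of C. rubella and 0.125 FPKM in those of C. grandiflora. How reads were shared out between these overlapping models is not given. The locus is 135 bp from Carubv10028443m, which was also found in buds of C. rubella and hardly in those of C. grandiflora (described with the variable genes).

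By stretch, the share of tested members called between the species ran from 15.6% (7 of 45, scaffold 8) to 28.6% (2 of 7, scaffold 5), around the 23.9% of all tested genes. The stretch of scaffold 2 had the lowest median difference, -0.22 over 99 genes. There 16 of 26 called genes were lower in C. rubella, beside 2037 of 4053 over all tested genes. The other stretches had medians between -0.06 and 0.08. After upper quartile scaling or quantile normalization the scaffold 2 median was -0.25 and -0.20. Neighbouring tested genes were both called in 15 of 398 pairs (3.77%), beside 6.68% of pairs in gene-rich windows, and 7 of the 15 (46.7%) moved in the same direction, beside 494 of 817 (60.5%).

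The second comparison sets C. grandiflora buds beside leaf, and it shares the C. grandiflora bud libraries with the first. Gene-poor genes differed between tissues nearly as often as genes at large. Of 435 members tested, 286 (65.7%) had an adjusted p below 0.05 (limma), beside 69.7% of 17229 genes tested. Buds were higher in 148 and lower in 138, where 37.4% and 32.2% of all tested genes were. At least 2-fold differences were found for 49.7% of tested members, beside 52.0% of all, and at least 4-fold differences for 26.7%, beside 26.1%. Libraries did not overlap for 47.6% of members and 50.7% of all. Genes that reached 1 FPKM in buds alone or in leaf alone passed the filter only through that tissue and had to differ. Among members these include 27 at 1 FPKM or above in all bud libraries and no leaf library, and 6 with the opposite pattern. The tissue shares of calls, folds and non-overlap hold such genes and are therefore descriptions. The balance of directions moved with scaling: after upper quartile scaling 195 members were higher and 113 lower in buds. That scaling moved the median difference over all genes from 0.13 to 0.48, and values are given relative to it where stretches are compared.

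The median difference between tissues varied from stretch to stretch, which is a description without a test. Single members spread more widely, with quartiles of -1.13 and 1.08 over all tested members. The stretch of scaffold 5 held only 7 tested genes. Relative to the median of all genes, the median bud minus leaf difference was 0.20 on scaffold 2 (99 genes) and 0.21 on scaffold 3 (92 genes), and it was negative on the other 6 stretches, from -0.24 (scaffold 1) to -0.49 (scaffold 6). These signs held with upper quartile scaling. With quantile normalization they held too, but scaffolds 1 and 2 came near 0 (-0.02 and 0.03). Of 92 genes tested on scaffold 3, 40 were called higher and 22 lower in buds. On scaffold 7, 13 of 55 were called higher and 22 lower. Of all tested genes 37.4% were called higher and 32.2% lower. These counts are those without further scaling, and the balance of directions moved with scaling. They too can hold genes that passed the filter only through buds or only through leaf.

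**Figure D5:**
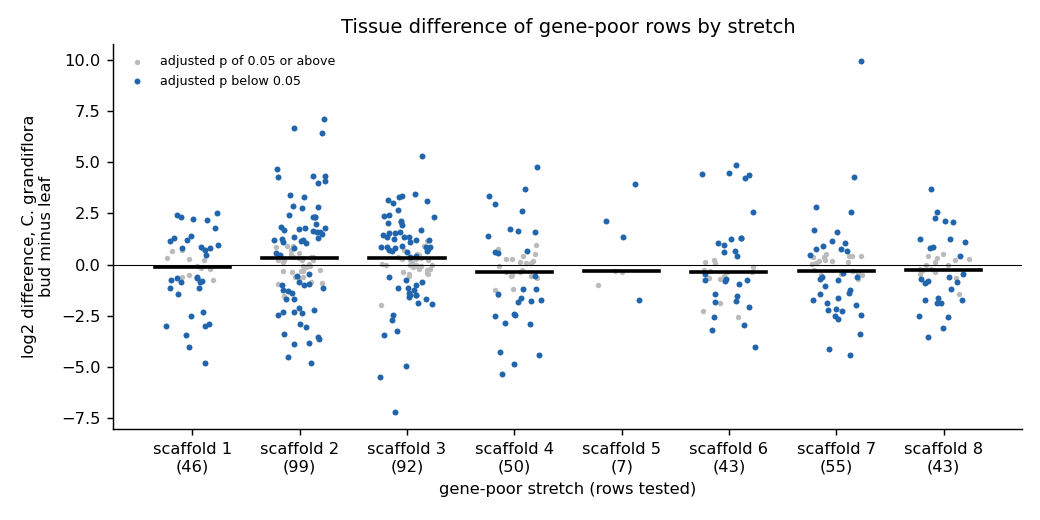
Difference between C. grandiflora bud and leaf, log2(FPKM + 1), for each tested member (points) in the gene-poor stretch of each scaffold, with the number of genes tested in brackets. Blue points have an adjusted p below 0.05, grey points do not, and black bars are medians. The bars of scaffolds 2 and 3 (0.33 and 0.34) lie above 0 and the others between -0.11 and -0.36.

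The gene with the largest excess in buds was Carubv10005096m (scaffold 7, 13088360 to 13090395), the most abundant member in buds of both species. It measured 1475, 1211, 1102 and 1314 FPKM in C. grandiflora buds and 1285, 834, 1122 and 1045 in those of C. rubella. In leaf it was listed at 0 in 6 libraries and reached 7.1 FPKM in leaf 3 (difference 9.92, SE 0.451, limma adjusted p = 1.71e-11). Among leaf libraries only leaf 3 reached 1 FPKM, so the gene passed the filter through buds and had to differ. Its tissue p-value is therefore no separate evidence. Its nearest other locus lay 93042 bp away.

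Carubv10022127m and Carubv10021431m, both on scaffold 2, were listed at 0 in all 10 leaf libraries. Carubv10022127m (6739600 to 6739964) measured 191, 124, 93.3 and 156 FPKM in C. grandiflora buds and 5.3, 147, 65.5 and 39.8 in those of C. rubella, where the libraries spread widely. Its difference between species did not pass the test (limma adjusted p = 0.154). With leaf at 0, it passed the tissue filter only through buds and had to differ. Its tissue call (limma adjusted p = 3.1e-15) is therefore no separate evidence. Carubv10021431m (4119452 to 4120283) measured 123, 113, 79.3 and 93.3 FPKM in C. grandiflora and 26.7, 76.1, 58.3 and 31.3 in C. rubella buds. Its tissue call (limma adjusted p = 6.63e-16) followed from the filter in the same way. Its species difference of -1.18 passed the test (limma adjusted p = 0.0324). That species call was lost without any 1 of 5 bud libraries, with adjusted p up to 0.0803.

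A further pair of members met the same pattern of 5 FPKM or above in all buds and 0 in all leaf libraries, so that 4 members (0.729%) did, beside 0.806% of all rows. Carubv10002773m (scaffold 6, 10017100 to 10019585) measured 21.4 ± 2.81 FPKM in buds of C. grandiflora and 9.73 ± 3.73 in those of C. rubella (SD, n = 4 each) and was lower in C. rubella (difference -1.11, SE 0.212, limma adjusted p = 0.00889, and 0.0591 without the bud libraries holding 0.5). Carubv10015887m (scaffold 3, 10400919 to 10401853) measured 6.98 ± 1.12 and 5.99 ± 0.404 FPKM (SD, n = 4 each) and did not pass the species test (limma adjusted p = 0.297). The remaining genes with the largest bud excess were Carubv10020070m (scaffold 2), Carubv10015548m (scaffold 3) and Carubv10001969m (scaffold 6). Their means in C. grandiflora buds were 117, 43.2 and 60.1 FPKM, and none of their 10 leaf libraries exceeded 3.92 FPKM.

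In leaf, Carubv10014882m (scaffold 3, 10068450 to 10069470) showed the largest excess. It measured 9.39, 9.6, 38.8 and 15.5 FPKM in C. grandiflora buds and ran from 1146 through a median of 2542 to 5427 FPKM in leaf (difference -7.18, SE 0.398, limma adjusted p = 1.96e-10). Carubv10023432m (scaffold 4, 3688320 to 3692546) was near absent from all 8 bud libraries, at 0.5 FPKM or below, and ran from 20.3 through 52.3 to 193 FPKM in leaf (difference -5.34, SE 0.488, limma adjusted p = 8.97e-08). It passed the filter only through leaf and had to differ. Its row shares coordinates with another. The next locus on the scaffold, 440 bp away, is Carubv10022908m, which was among the steadiest members of all.

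Of the 6 genes named for their excess in leaf, 3 were also called higher in buds of C. rubella, beside 11.9% of all tested genes. The 6 were picked for low C. grandiflora buds beside leaf, and the same bud libraries enter the species difference. That choice favours higher values in C. rubella, so the count is a description. Carubv10014882m did not pass the species test (limma adjusted p = 0.35), and Carubv10023432m was not tested between species. Carubv10014049m (scaffold 3, 11057218 to 11059740) measured 26.4 ± 5.28 FPKM in buds of C. grandiflora and 59 ± 11.8 in those of C. rubella (SD, n = 4 each), with 795 to 1589 FPKM in leaf. Its species difference was 1.13 (SE 0.186, limma adjusted p = 0.00534). Carubv10013869m (scaffold 3, 11335968 to 11338260) measured 65.5 ± 13.1 and 121 ± 25.9 FPKM in the buds and 1199 to 2814 in leaf (species difference 0.87, SE 0.201, limma adjusted p = 0.0169). Carubv10024324m (scaffold 4, 3946531 to 3947510) measured 105 ± 4.24 and 150 ± 19 FPKM in the buds and 1936 to 4378 in leaf (species difference 0.50, SE 0.103, limma adjusted p = 0.0115). In 1 fit of all 18 libraries the species calls of Carubv10013869m and Carubv10024324m were lost (limma adjusted p = 0.0575 and 0.364). By contrast Carubv10009668m (scaffold 1, 14895983 to 14898766), with 683 to 1331 FPKM in leaf, measured 33 ± 3.21 and 33.4 ± 4.32 FPKM in the buds and did not pass the species test (limma adjusted p = 0.935).

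The members also include genes of very high level. Carubv10021201m (scaffold 2, 5144803 to 5146081) measured 1380, 1058, 1047 and 1083 FPKM in C. grandiflora buds, 1105, 766, 773 and 914 in those of C. rubella and 8783 to 29290 in leaf with a median of 12958. Carubv10021904m (scaffold 2, 5330454 to 5330931) lies within the same window of 23 rows and measured 376 ± 110 and 719 ± 197 FPKM in the buds (SD, n = 4 each), with 1310 to 21972 in leaf. Its species difference of 0.94 passed the test (SE 0.264, limma adjusted p = 0.0345) although the libraries overlapped. The call was lost without any 1 of 5 bud libraries, in 1 fit of all 18 libraries and without the libraries holding 0.5. Members in all took 2.51% to 2.65% of the FPKM sum in the bud libraries, near their 2.84% of rows, and 2.25% to 4.3% in leaf.

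Other abundant members had higher means in buds than in leaf. Carubv10009403m (scaffold 1, 14699837 to 14701918) measured 843 ± 42.5 and 839 ± 106 FPKM in buds of C. grandiflora and C. rubella (SD, n = 4 each) and 65.3 to 1169 FPKM in leaf. Carubv10014389m (scaffold 3, 10782905 to 10784318) measured 626 ± 146 and 431 ± 75.1 FPKM (SD, n = 4 each) and 68.1 to 1535 in leaf. Both were highest in leaf 4 among the leaf libraries, and there they stood above every bud library. Carubv10014389m did not pass the tissue test (limma adjusted p = 0.0907), while Carubv10009403m did (limma adjusted p = 0.0039) although its libraries overlapped. Carubv10022892m (scaffold 4, 3082298 to 3084866) was lower in C. rubella, at 400, 378, 352 and 409 FPKM in C. grandiflora and 264, 255, 266 and 261 in C. rubella buds, 2 narrow and separate ranges (difference -0.55, SE 0.0822, limma adjusted p = 0.00378, and 0.47 in 1 fit of all 18 libraries).

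Variation among libraries of a group was larger for weakly expressed gene-poor genes than for gene-rich genes of like level, and the gap was smaller at higher levels. For genes with a group mean of 1 to 5 FPKM the median SD of log2(FPKM + 1) was 0.393 for C. grandiflora buds, 0.437 for those of C. rubella and 0.697 for leaf, over 112, 87 and 73 members. Gene-rich genes of that level gave 0.283, 0.229 and 0.569, and intermediate windows 0.326, 0.304 and 0.618. For genes at 20 FPKM or above the medians were 0.169, 0.168 and 0.437 in gene-poor and 0.173, 0.153 and 0.438 in gene-rich windows. The part of sequencing depth in this was not tested.

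The most variable members among leaves were listed at 0 in some plants and stood high in others. Carubv10002340m (scaffold 6, 11636631 to 11637389) was at 0 in 3 leaf libraries and reached 1145 FPKM in leaf 6, with a median of 42.7, whereas buds of both species stayed at 8.36 FPKM or below. Carubv10028443m (scaffold 8, 4486477 to 4487537) was at 0 in 6 leaf libraries and reached 251 FPKM in leaf 6. It measured 89.5, 22, 91 and 0 FPKM in buds of C. rubella and 0.5, 0, 0 and 0.53 in those of C. grandiflora, so that the library C. rubella bud 4 stood with the other species. It reached 1 FPKM in only 3 bud libraries and was not tested between species. Carubv10007872m (scaffold 7, 12136429 to 12137932) was at 0 in 6 leaf libraries with a highest value of 50.4 FPKM. Its buds measured 0.5, 19.4, 0 and 0 FPKM in C. grandiflora and 0.5, 29.3, 25.8 and 0 in C. rubella, with high and near-zero libraries in both species.

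At the other end, some gene-poor genes were nearly constant across species and tissues. Carubv10011788m (scaffold 1, 14978546 to 14985376) measured 23.9 ± 2.22 and 23.3 ± 1.5 FPKM in buds of C. grandiflora and C. rubella (SD, n = 4 each) and 27.8 ± 5.08 in leaf (SD, n = 10), with an SD of log2(FPKM + 1) of 0.218 over all 18 libraries. Its row shares coordinates with another. Carubv10022908m (scaffold 4, 3692987 to 3697067) measured 14.4 ± 0.756, 13.8 ± 1.05 and 13.1 ± 2.61 FPKM in the same groups. Carubv10004088m (scaffold 7, 13307222 to 13312032) measured 13.8 ± 1.31, 14 ± 0.686 and 12.3 ± 2.43 FPKM. All 3 span 4081 bp or more, and none passed the test between species or tissues.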

How the data were processed

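The authors deposited 1 table of FPKM for 19350 rows and 18 libraries, placed on a build that the headers call CR v1 JGI. Bowtie, TopHat and Cufflinks are named in the submitters' processing notes. Their versions and settings, and how bud and leaf columns were scaled, are not stated in what was available. Columns were assigned to libraries by name, and none was left over. The members and all tests were chosen with earlier results of these data known.

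Values were analysed as log2(FPKM + 1), which understates the change of low genes. Genes at 1 FPKM or above in at least 4 libraries of a fit were compared with limma 3.58.1 (R 4.3.3; empirical Bayes, mean trend) and Benjamini-Hochberg adjustment over all genes tested, at 0.05. Between species 8 bud libraries entered, and between tissues the 10 leaf libraries and the 4 of C. grandiflora buds. Both fits were tested on simulated data.

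Members named were, per comparison and direction, the 6 with the largest difference among those called, with a mean of 5 FPKM or above in the higher group and without overlap. Added to these were the 5 most abundant per group, those at 5 FPKM or above in all buds and 0 in all leaf libraries (up to 5), the 3 most variable in leaf and the 3 steadiest, both at a mean of 5 FPKM or above. A few more, marked in the text, were named after their values were seen. Gene lists by function and sequences were not used here. Alternatives covered pseudocount, filter, scaling, trend, libraries, shared coordinates, the value 0.5 and the window rule. Read totals were not used, so depth and its precision are unknown.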

Additional observations from a re-analysis of the deposited data

Results flagged for a closer look

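Single libraries far from the others of their group were searched for in 114 sets of values, and 30 were found. Of these 30, 19 were in leaf. The search assumed a chance rate of about 1 in 20, which cannot be applied here. All 30 belong to named genes, many of them chosen for large differences, high levels or spread in the same libraries. The count is therefore a description, and no excess of outlying libraries is read from it.

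In C. grandiflora buds, bud 1 was high for Carubv10021201m (1380 FPKM, next 1083) and for Carubv10025184m (0.5, others 0). Bud 2 was high for Carubv10007872m (19.4 FPKM, next 0.5) and bud 3 for Carubv10009403m (906 FPKM, next 824). Bud 4 was high for Carubv10021533m (0.46 FPKM, next 0.16) and Carubv10002371m (5.94 FPKM, next 0.5). In C. rubella buds, bud 1 was high for Carubv10016383m (0.5, others 0) and bud 2 for Carubv10009530m (5.98 FPKM, next 2.12). Bud 3 was low for Carubv10003549m (7.8 FPKM, next 17.2) and high for Carubv10014389m (544 FPKM, next 405) and Carubv10002773m (15.3 FPKM, next 8.25). The 2 values of 0.5 stand in the libraries whose columns hold 0.5 in place of 0.

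Among leaf libraries, leaf 4 was highest for 5 genes: Carubv10016383m at 1.55 FPKM, Carubv10013581m at 1.62, Carubv10009530m at 10.1, Carubv10009403m at 1169 and Carubv10014389m at 1535. Leaf 9 was highest for Carubv10002575m at 65.7 FPKM, Carubv10022892m at 303 and Carubv10021904m at 21972. Leaf 6 was highest for Carubv10014882m at 5427 FPKM, Carubv10002340m at 1145 and Carubv10028443m at 251. Leaf 2 was highest for Carubv10021533m at 20.8 FPKM and Carubv10019219m at 5.70, and leaf 3 for Carubv10005096m at 7.10 and Carubv10001969m at 3.92. Leaf 8 was highest for Carubv10018968m at 0.0372 FPKM and Carubv10015548m at 0.236, leaf 5 for Carubv10025184m at 1.56 and leaf 1 for Carubv10021201m at 29290.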

How the results depend on the processing

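The share of tested members called between species was 22.2%, beside 23.9% of all tested genes. It was 10% in 1 fit of all 18 libraries and 10.7% without the bud libraries holding 0.5, where all tested genes gave 8.47% and 12.1%. Leaving out each bud library gave 15.5% to 21.7%, where all tested genes gave 16.2% to 23.9%. The tissue share of 65.7% (all tested genes 69.7%) lay between 56.9% and 73.1% under all alternatives run. All tested genes gave 60.6% to 74.7%. Both tissue shares hold genes that passed the filter only through buds or only through leaf and had to differ. The 12 members at 4-fold or more became 20 with windows of fewer than 100 rows, 19 with a pseudocount of 0.1, 2 with a pseudocount of 5, 7 without the bud libraries holding 0.5, and 7 to 14 with each bud library left out. The median level in C. grandiflora buds was 8.12 FPKM with windows of fewer than 100 rows. In C. rubella buds it was 9.17 FPKM with windows of fewer than 50 rows and 8.92 with shifted windows. Restricted to rows with a mean of 1 FPKM or above, the medians were 12.7 FPKM in C. grandiflora buds, 13.3 in C. rubella buds and 13.0 in leaf. The cause of these changes was not tested, beyond the fewer libraries or other rows that each setting holds. No named difference reversed; the species call was lost for 8 of 19 named genes in at least 1 alternative. Beside Carubv10021431m and Carubv10021904m these were Carubv10002371m, Carubv10013869m, Carubv10022892m and Carubv10024324m in 1 fit of all 18 libraries (adjusted p 0.145, 0.0575, 0.47 and 0.364) and Carubv10002773m and Carubv10009530m without the bud libraries holding 0.5 (adjusted p 0.0591 and 0.0559, limma). The labels give no replicate numbers shared between groups, and a leading number shared by titles can stand for different sites, but some bud and leaf plants share an origin (1 site and crosses from Corfu). With a replicate block for shared origin, chosen after seeing the data, 62.1% of tested members were called between tissues, beside 64.6% of all tested genes, and no named tissue call was lost. Depth is unknown, so its limits on weak genes could not be given.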
